A study of Mus musculus with 3 samples.

Results

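The 10 stretches of mouse liver chromatin described here each hold several mTOR peaks that are strong by their ratio to the control. They span 4.40 to 89.0 kb, and none of them lies on chromosome 13. They were chosen by position in build mm9, from places where the mTOR ChIP stood high over the control in these same libraries. With 5 kb added on each side they make up 3202 bins of 200 bp out of 13209292 on chromosomes 1 to 19, X and Y. The data come from chromatin immunoprecipitation and sequencing (ChIP-seq) of liver from C57Bl/6 males at 2 to 3 months of age. There is 1 library for mTOR (antibody ab32028), 1 for the nuclear receptor ERRα (antibody 2131-1) and 1 control made with rabbit immunoglobulin G (IgG, sc-2027). Each ChIP library pools 8 immunoprecipitations from chromatin of 26 livers, so single animals cannot be told apart, and the pooling of the IgG control is not stated. The labels give no treatment and no genotype for any of the 3 groups, and no library from liver without mTOR or ERRα was used here.

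With 1 library in each group, no difference below has a replicate check, no test was made, and every comparison is one of libraries. Values are coverage that the authors scaled to 10000000 tags. The libraries hold 62500000 (mTOR), 74200000 (ERRα) and 68800000 (IgG) tags. A fold is the ratio of 2 coverages after 0.2 was added to each. A region is a run of adjacent bins at 3-fold or more over IgG and above a coverage of 2.01, and its level is that of its highest bin. Intervals are exact (Clopper-Pearson) 95% intervals on approximate tag numbers, converted from coverage, without the added 0.2. They cover counting error only and do not allow for the choice of high bins.

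mTOR is the kinase that rapamycin inhibits through FKBP12, and it works in the cell as part of mTORC1 and mTORC2. mTORC1 promotes growth, among other ways, by raising transcription of transfer RNA genes by RNA polymerase III, in part through the repressor MAF1, and mTOR has been found on such genes in cultured mammalian cells. Transfer RNA genes are short, and in mammals many lie in clusters. ERRα is an orphan receptor that binds DNA at its own response element and is known for its control of mitochondrial energy metabolism, in liver as in other tissues. No gene annotation or sequence of build mm9 was used here, so the regions below carry positions and no gene names, and the tissue was not checked against promoters of liver genes.

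The choice of the windows can be restated from the data. In the whole genome 315 of 9069 mTOR regions (3.47%) reached 20-fold over IgG. Joined wherever the gap was at most 100 kb, these formed 13 chains of 3 or more. The chains gave 10 windows with exactly the stated ends, and the other 3 lay on chromosome 13. The 10 windows hold 42 regions at 20-fold, which is 13.3% of those in the genome, against 0.739% of the 9069 regions at 3-fold. Because this contrast chose the windows, its values are a description. Just inside the choice were 4 windows with exactly 3 such regions, on chromosomes 6 (the first), 8, 17 and 19. The first chromosome 6 window depended on regions where IgG coverage converts to about 1 tag. Just outside were 14 pairs, the tallest of which reached a level of 143 at chr5:137974001-138029400. Within the windows the lowest fold counted as strong was 20.5 and the highest below that limit was 19.

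mTOR occupied the windows as separate narrow peaks over a low floor, slightly above that of the control. There were 67 mTOR regions, 61 of them inside the stated ends and 6 in the added flanks. Of the 3202 bins, 270 were called for mTOR (8.43%), where 0.121% of bins were called in the whole genome. Those bins held 71.2% of the mTOR coverage of the windows, 12.0% of the ERRα coverage and 9.32% of the IgG coverage. In the 2893 bins called for neither ChIP, the median coverage was 0.600 for mTOR, 0.600 for ERRα and 0.522 for IgG. Every called bin had been taken out, so a low ratio to IgG in the rest was largely set by the calling. The means of these bins were 0.667, 0.647 and 0.559, so mTOR lay slightly above IgG between the peaks. In uncalled bins elsewhere with IgG above 0, the mTOR median was below the IgG median of 0.532. The window bins were not filtered by IgG in that way, so the sets are not fully alike. No bin of the windows was called with IgG over mTOR. The windows were chosen for the opposite contrast, and the genome-wide share of such bins was not counted.

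**Figure D1:**
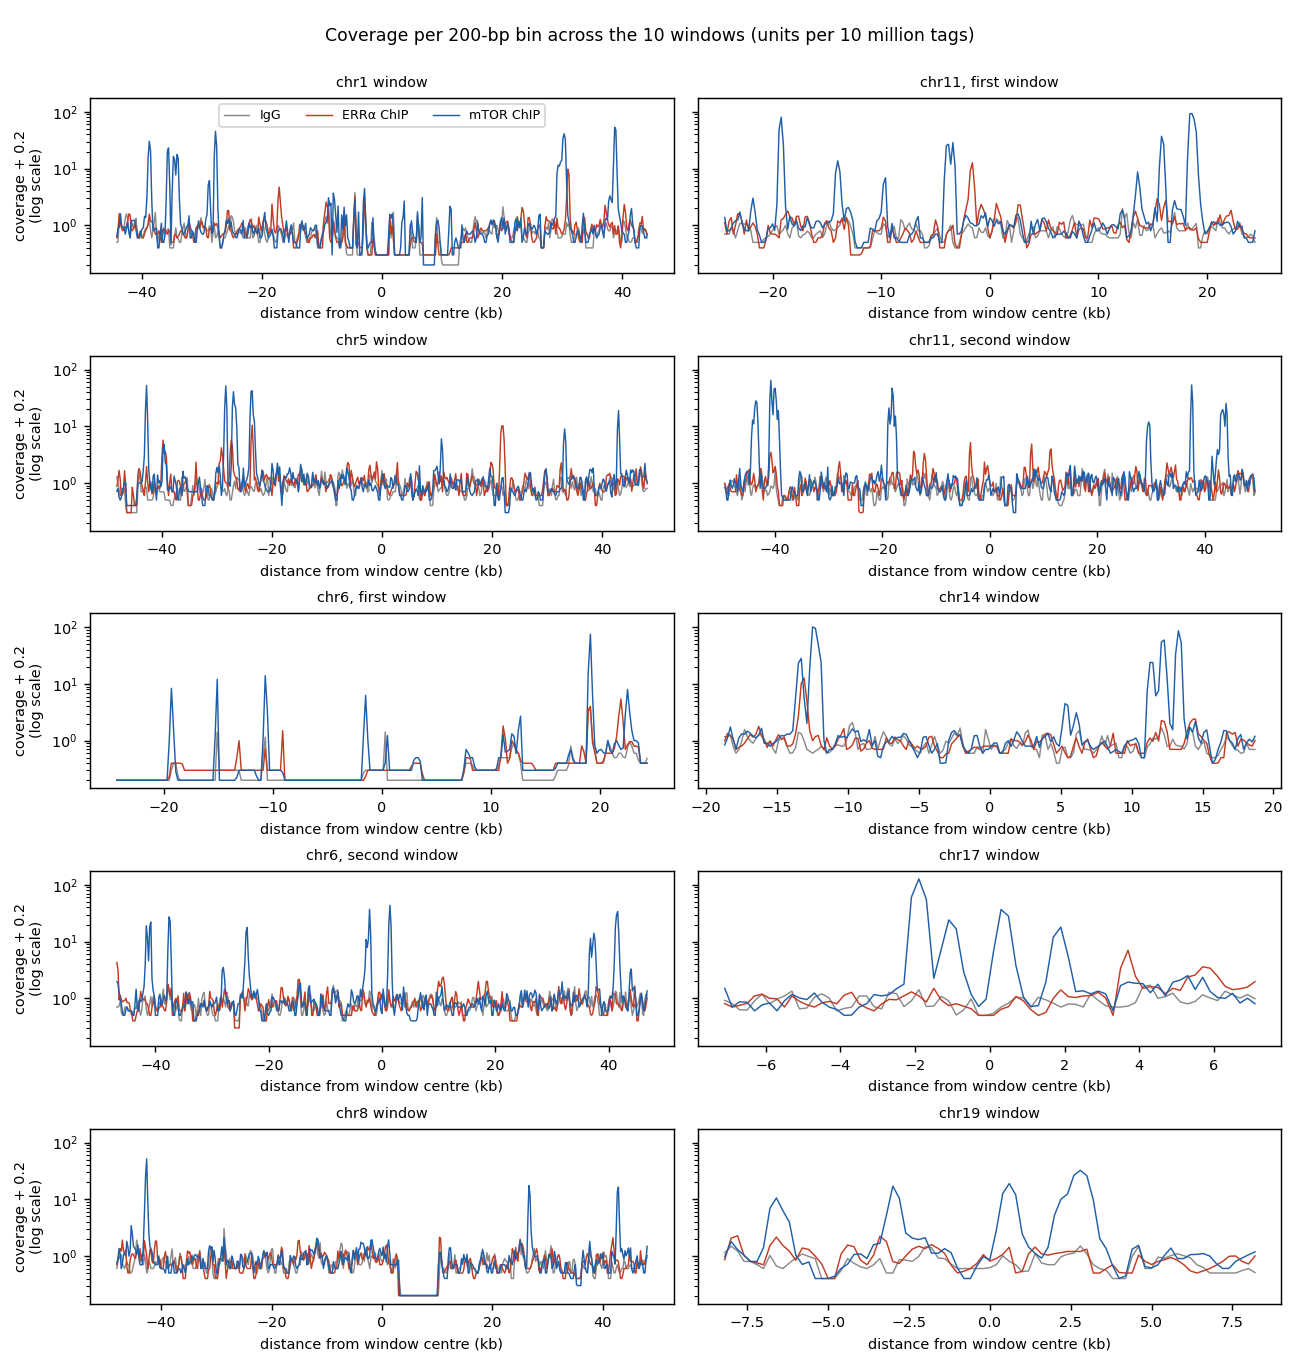
Coverage in 200-bp bins, plus 0.2, on a log axis, against the distance from the centre of each of the 10 windows in kb, for the mTOR ChIP (blue), the ERRα ChIP (red) and IgG (grey). The mTOR line rises to between 32.2 and 127 at the highest bin of each window, while the uncalled bins between peaks have a median of 0.600.

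mTOR levels differed widely among the 67 regions. The lowest was 2.27, the median 18.7 and the highest 127, with quartiles of 7.26 and 41.5. At the same bins ERRα coverage ran from 0.0340 to 10.3 with a median of 0.799, and IgG coverage from 0.10 to 3.37 with a median of 0.600. The mTOR fold over IgG had a median of 24.5. It was at least 10-fold in 50 regions, and the steps of 50-fold and 100-fold were passed by 16 and 5. Every window mixed tall and low regions, and the ratio of its highest to its lowest level was between 3.11 and 55.1.

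**Figure D2:**
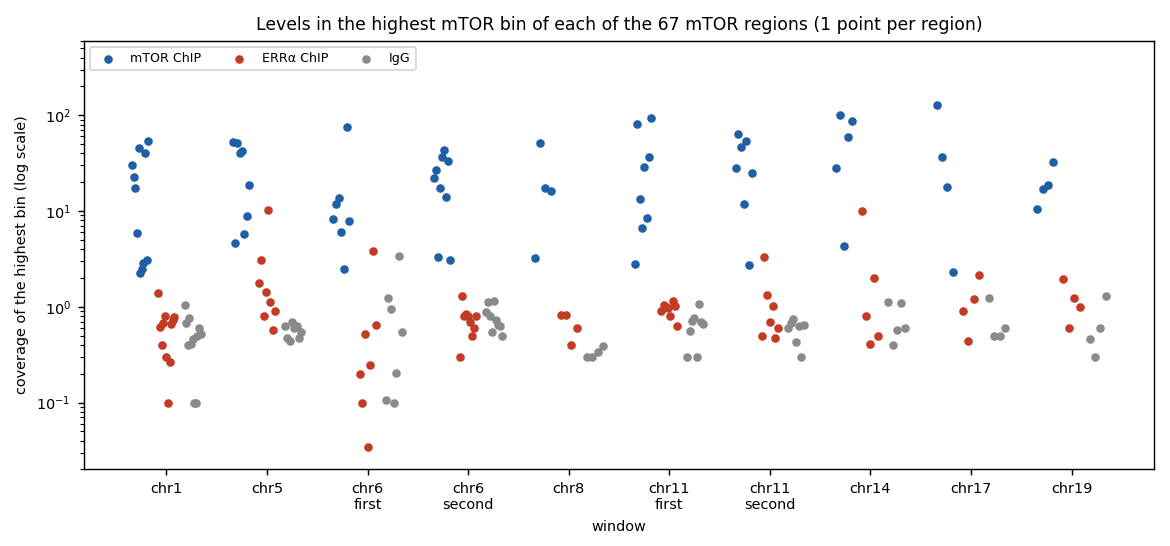
Coverage of the highest mTOR bin of each of the 67 regions for mTOR, ERRα and IgG, on a log axis, by window; each point is 1 region. The bins were chosen as mTOR maxima, so mTOR lies above ERRα by choice; the medians are 18.7 for mTOR, 0.799 for ERRα and 0.600 for IgG.

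The tallest peak of the 10 windows lay on chromosome 17, in the shortest window, chr17:23683201-23687600. At chr17:23683201-23684800 mTOR coverage was 127, ERRα coverage 0.899 and IgG coverage 1.22. mTOR was 90.0-fold over IgG there (interval 59.2 to 214) and ERRα 0.774-fold. This region alone held 72.6% of the called mTOR coverage of its window. The next region, chr17:23685401-23686200, had values of 36.5, 0.441 and 0.50 for mTOR, ERRα and IgG, and chr17:23687001-23687600 had 17.8, 1.21 and 0.50. Levels thus fell along the 4.40 kb of the window in the order of position. The lowest fold of the window belonged to chr17:23690601-23690800 in the flank, where mTOR at 2.31 and ERRα at 2.17 were nearly equal over IgG at 0.600.

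The window chr14:51683201-51710800 held 3 of the 10 highest levels in the whole set. At chr14:51684201-51685200 the values for mTOR, ERRα and IgG were 101, 0.796 and 0.400, so that mTOR was 169-fold over IgG (90.2 to 852), the largest fold of the 67. At its other end chr14:51710001-51710800 had 86.4, 0.50 and 0.600, and chr14:51708001-51709600 had 59.3, 1.98 and 1.09. The tall regions therefore stood at both ends of 27.6 kb. A single low region lay between them, at chr14:51702201-51702600, with 4.30, 0.411 and 0.570.

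On chromosome 11 the first window, chr11:48631801-48670800, likewise had its tallest regions at the ends. Coverage at chr11:48669401-48670800 was 93.5 for mTOR, 0.623 for ERRα and 0.658 for IgG, a 109-fold excess of mTOR over IgG (65.4 to 391). At chr11:48631801-48632400 it was 80.5, 1.05 and 0.560, or 106-fold (63.0 to 456). Between them lay 5 lower regions at levels of 6.71 to 36.9. The first region overall was in the flank, chr11:48629401-48629600, at 2.82 for mTOR against 0.30 for IgG. The lowest folds of this window were 6.04 there and 6.86 at chr11:48664601-48665200.

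The second window on this chromosome was the longest, chr11:68850201-68939200. Its tallest region was chr11:68853601-68855600, with 64.3 for mTOR, 3.29 for ERRα and 0.680 for IgG, and mTOR was 73.3-fold over IgG (44.9 to 269). At chr11:68932001-68932600 the values were 53.4, 1.02 and 0.632. The first region, chr11:68850201-68851600, reached 27.8 in the mTOR ChIP, and the last, chr11:68936801-68939200, reached 25.1; the latter was the widest called region of the set at 2400 bp. The lowest fold, 5.92, was at chr11:68936001-68936200, where mTOR coverage was 2.76. A further strong region, chr11:68875601-68877400, named after its values were seen, had 46.8 for mTOR, 1.34 for ERRα and 0.752 for IgG, and its summit lay 22643 bp and 47761 bp from those of its neighbours.

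The chromosome 1 window, chr1:172963601-173042000, held the most regions, 11, of which 6 reached 20-fold. Its tallest was the last, chr1:173041201-173042000, at 53.6 for mTOR, 0.785 for ERRα and 0.514 for IgG (75.3-fold over IgG, 41.8 to 304). At the other end chr1:172963601-172964600 had 30.2, 1.38 and 1.04. The lowest fold, 3.73, was at chr1:172994201-172994400, where mTOR was 2.27 and IgG 0.462. That region and its neighbours chr1:173006401-173006600 and chr1:173009401-173009600 were single bins at mTOR levels of 2.27 to 2.88. IgG reached 3.6 in a bin of this window, the highest IgG value of any of the 10.

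In the chromosome 5 window, chr5:125869801-125956400, 4 of 8 regions had mTOR levels between 40.5 and 52.3. The tallest was the first, chr5:125869801-125870600, with 52.3 for mTOR, 1.75 for ERRα and 0.628 for IgG, or 63.4-fold over IgG (36.5 to 219). The last, chr5:125955801-125956400, reached 18.7 for mTOR. Its lowest fold was 7.22, at chr5:125873201-125873800, where mTOR was 4.63, ERRα 3.10 and IgG 0.469. This window had the most bins called for ERRα by number, 17 of 483 (3.52%), while the share was highest in the chromosome 17 window, at 5.56%.

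The windows on chromosomes 8 and 19 held 4 regions each. In chr8:112216801-112303000 the tallest region, chr8:112216801-112217800, had 51.1 for mTOR, 0.820 for ERRα and 0.30 for IgG (103-fold over IgG, 53.1 to 761). The remaining strong regions there, chr8:112286201-112287000 and chr8:112302201-112303000, had mTOR levels of 17.2 and 16.2, and the lowest fold, 6.85, was in the flank at chr8:112214401-112214800. In chr19:12080201-12086800 the levels were the most even of any window, at 10.4, 16.8, 18.7 and 32.2. The tallest was chr19:12085401-12086800, where ERRα was 1.00 and IgG 1.30, and mTOR was 21.6-fold over IgG (13.8 to 48.2). The first, chr19:12076601-12077400 in the flank, had the lowest fold, 15.9. Neither window held an ERRα region. In the highest mTOR bin of chr19:12076601-12077400, though, ERRα was 1.95, just under the minimum level of 2.01, and 3.24-fold over IgG (1.46 to 17.8).

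Of the chromosome 6 windows, the second, chr6:128709801-128793600, held 9 regions. Its tallest was chr6:128752601-128753400 with 43.3 for mTOR, 0.700 for ERRα and 0.723 for IgG (47.2-fold, 27.3 to 142). The first and the last inside the stated ends, chr6:128709801-128711200 and chr6:128792601-128793600, had mTOR levels of 21.9 and 33.6. At the lowest fold, 3.49, chr6:128723401-128723800 had 3.33 for mTOR, 0.798 for ERRα and 0.810 for IgG. At the region chr6:128795601-128795800 in the flank mTOR coverage was 3.09.

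The first chromosome 6 window, chr6:47689801-47728600, stood apart. No library covered 33.0% of its bases, against 7.34% in the chromosome 8 window and 0 in the other 8, and mean coverage was 0.793 for mTOR, 0.214 for ERRα and 0.129 for IgG. Its tallest region, chr6:47728001-47728600, had 75 for mTOR, 3.81 for ERRα and 3.37 for IgG (21.0-fold, 15.5 to 32.9), the highest IgG value at any of the 67 regions. The first region, chr6:47689801-47690000, had 8.18, 0.20 and 0.106, where IgG converts to about 1 tag. At chr6:47707601-47707800 the values were 6.08, 0.0340 and 0.10, again converting to about 1 IgG tag. With the tallest, these made up the 3 regions of the window at 20-fold. Coverage is held in steps of 0.1, while 1 IgG tag is worth 0.145. The fold of 20.9 at chr6:47707601-47707800 is just above the 20-fold limit, so rounding alone could move it across. Regions at higher mTOR levels of 13.8 and 11.9 were only 12.1-fold and 8.53-fold over IgG. The place of this window in the set thus rests on bins with almost no IgG. The lowest fold, 6.67, was at chr6:47721801-47722000 with 2.50 for mTOR. At chr6:47694001-47694200 ERRα was 0.10 and IgG 1.22, the single bin of the 67 where the ERRα interval lay below IgG (0.00196 to 0.580).

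The peaks of that window were also narrower. Over all 67 regions the width of the peak at 50% of its summit had a median of 332 bp, with quartiles of 268 and 396. In 9 regions it was under 200 bp, and these were 6 of the 7 in the first chromosome 6 window and the 3 low single-bin regions on chromosome 1. The medians of the other 9 windows lay between 266 and 409.5 bp. In the first chromosome 6 window the median was 154 bp, close to the length of about 150 bp that each tag covers in these tracks. The broadest value, 1352 bp at chr1:173040401-173040800, runs into the tall peak beside it. The part of the uncovered bases in these widths was not tested.

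**Figure D3:**
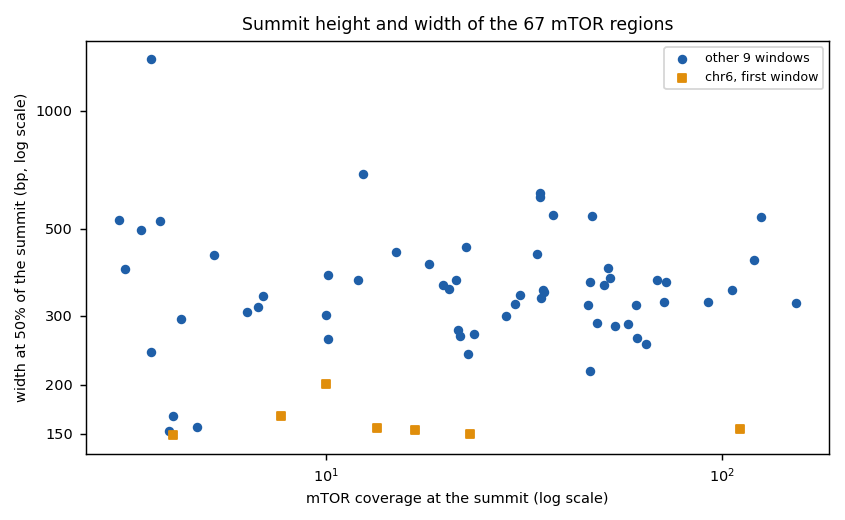
Width of each mTOR peak at 50% of its summit in bp against mTOR coverage at the summit, both on log axes, for the 67 regions; squares mark the first chromosome 6 window. The squares lie between 149 and 201 bp at all heights, while the median over all regions is 332 bp.

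Several regions held more than 1 summit. With a summit counted where it stood out by at least 25% of the tallest, 10 of the 67 regions had 2 summits and none had 3. In 8 of the 10 the summits lay 509 to 834 bp apart. The pairs were of like height in some, such as 19.7 and 18.6 at chr1:172967801-172969200 and 34.8 and 31.6 at chr11:48647001-48648200. They were unequal in others, such as 29.3 and 72.0 at chr14:51708001-51709600. The remaining pairs, 121 bp apart at chr11:68923801-68924800 and 198 bp apart at chr14:51684201-51685200, had heights within 1.01 times of each other.

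Neighbouring summits were most often a few kb apart. Over 57 distances within windows the median was 4142 bp, the shortest 828 bp and the longest 69251 bp. There were 32 distances under 5 kb and 8 of 20 kb or more. The chromosome 17 and 19 windows were compact, with no distance above 3603 bp. In the windows on chromosomes 1, 5, 6 (the second), 8 and 11 (the second), the longest distance was between 23523 and 69251 bp. The windows match chains of strong regions with gaps of at most 100 kb, so close spacing was partly set by the choice and is a description. The spacing is that of regions called at these settings, and peaks that were merged count once.

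**Figure D4:**
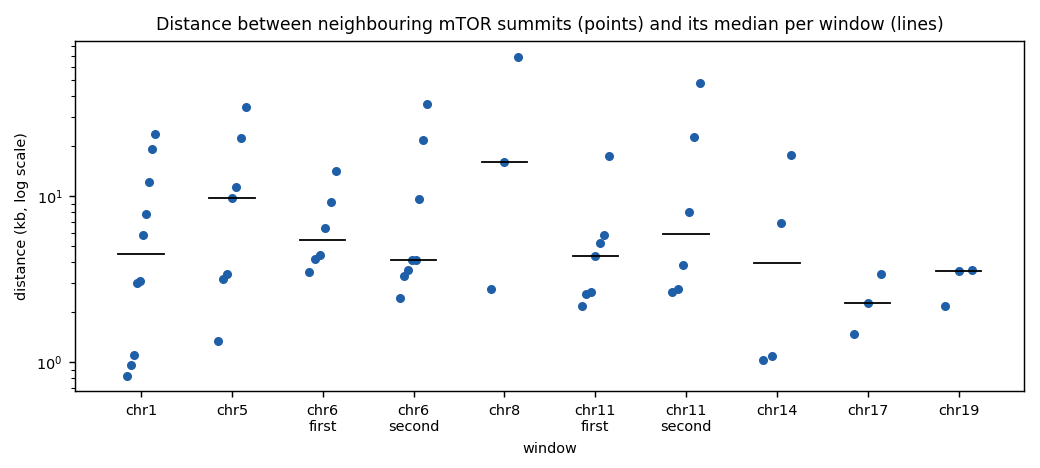
Distances between neighbouring mTOR summits in each window, in kb on a log axis; points are single distances and lines are medians per window. The points of chromosomes 17 and 19 stay below 4 kb, and the largest distance is 69251 bp on chromosome 8. The windows match chains of strong regions, so close spacing was partly set by the choice.

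The windows were next read in the ERRα ChIP, which the choice of windows did not use except through the shared IgG library. At most mTOR peaks ERRα could not be told apart from the control at this depth, though its folds lay mostly above 1. Its fold over IgG in the 67 bins had a median of 1.30 and quartiles of 0.965 and 1.65. The counting interval included 1 at 60 bins, lay above 1 at 6 and below 1 at 1. Where the interval included 1, a difference was not detectable at this depth. Both ChIPs are divided by the same IgG value, so their folds are not independent. Median IgG coverage was 0.600 at these bins and 0.522 in the uncalled window bins. The part of the shared IgG in the ERRα folds was not tested.

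The ChIPs were also compared directly at those bins. Each was taken as the highest mTOR bin of an mTOR region, in windows chosen for strong mTOR peaks, so the direction of these ratios was largely set by the choice and they are a description. mTOR coverage was the higher in all 67, with a median ratio of 20.1 and quartiles of 6.80 and 38.4. It was at least 3 times the ERRα value in 63, and the interval of the ratio lay above 1 in 65. The most unequal bin was at chr14:51710001-51710800, with a ratio of 124 (72.9 to 528), followed by 116 (73.5 to 307) at chr17:23683201-23684800. The least unequal was chr17:23690601-23690800 at 1.06 (0.546 to 2.10). Over all window bins, 253 had mTOR at least 3 times ERRα (7.90%, against 0.104% in the genome), an excess that restates the choice of the windows. In the other direction 30 bins had ERRα at least 3 times mTOR (0.937%, against 0.248%).

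ERRα had its own, lower peaks in 8 of the 10 windows. There were 24 ERRα regions, on 51 bins (1.59%, where 0.306% of bins in the genome were called). Their levels ran from 2.07 to 12.6 with a median of 4.30, and their folds over IgG from 3.04 to 14.2 with a median of 5.03. The median width at 50% of the summit was 395 bp. The number of ERRα regions was 15 at a minimum of 5-fold and 38 against the genome-wide mean in place of the control. The windows on chromosomes 5 and 11 (both of the latter) had 5 each, chromosome 1 had 3, chromosomes 14 and 17 had 2 each, and those on chromosome 6 had 1 each.

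The highest ERRα level was at chr14:51683601-51684200, with 12.6 for ERRα, 5.57 for mTOR and 0.792 for IgG. ERRα was 12.8-fold over IgG there (7.74 to 41.7) and mTOR 5.81-fold. Next came chr11:48649401-48650000, with 12.5 for ERRα, 0.869 for mTOR and 0.691 for IgG, where ERRα was 14.2-fold over IgG (8.56 to 53.2) and the mTOR interval included 1. Coverage at chr5:125889201-125889800 was 10.3 for ERRα, 42.2 for mTOR and 0.600 for IgG. At chr5:125934601-125935400 it was 9.99, 1.01 and 0.652, and at chr1:173033601-173034000 it was 9.61, 1.30 and 0.760. Of these 5 bins mTOR was thus far above IgG in the chromosome 5 region at 42.2 and raised in the chromosome 14 region. In the other 3 the mTOR interval included 1.

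Elsewhere the highest ERRα region of a window was lower. On chromosome 17 it was chr17:23688801-23689200, with 6.83 for ERRα, 1.73 for mTOR and 0.528 for IgG. In the second chromosome 11 window it was chr11:68890801-68891200, with 4.96, 0.467 and 1.01. On chromosome 6 the regions were chr6:47730801-47731200, with ERRα at 5.24 and mTOR at 0.50, and chr6:128704801-128705200, with 4.08 and 1.76. The mTOR fold over IgG was 2.66 (1.05 to 10.9) at the chromosome 17 region and 2.80 (1.14 to 11.6) at chr6:128704801-128705200. At the other two the mTOR interval included 1.

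Regions called in both ChIPs were few. They numbered 6 of the 67 mTOR regions (8.96%) and 6 of the 24 ERRα regions (25%), and in the genome 6.02% of mTOR regions touched an ERRα region and 2.48% of ERRα regions touched an mTOR region. The mTOR share was near its background and the ERRα share was above it, in windows chosen for holding many mTOR regions. The windows held 3 of them on chromosome 5, 2 on chromosome 11 and 1 on chromosome 14. Both ChIPs were called in 12 of the 3202 window bins, and the genome-wide share of such bins was not counted. With 100-bp bins 11 mTOR regions were shared, and 12 against the genome-wide mean.

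Within the shared regions the summits of the ChIPs did not always fall together. They were 65 bp apart at chr5:125889001-125890200, where mTOR was 53.0-fold and ERRα 13.1-fold over IgG in the same bin. They were 80 bp apart at chr11:68853601-68855600, where ERRα was 3.96-fold (2.11 to 14.9), and 154 bp apart at chr5:125873201-125873800. The distance was 303 bp at chr5:125885801-125886800, where mTOR was 40.5 and ERRα 1.43 in the highest mTOR bin, and 353 bp at chr11:48666801-48667600, with 36.9 and 1.02. At chr14:51683201-51684000 it was 215 bp, and the ERRα summit lay between this mTOR peak of 28.0 and the taller one of 101 that followed. In 3 of the 6 the summits were thus over 200 bp apart, the width of a bin.

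A further 3 ERRα regions adjoined an mTOR region without sharing a bin. At chr1:173033601-173034000 the ERRα summit lay 794 bp from the mTOR summit of the region that ended where it began. At chr5:125883801-125884200 the distance was 859 bp, and ERRα was 3.98 with mTOR at 0.400. At chr11:48666601-48666800 it was 386 bp. In all, 12 of the 24 ERRα regions had an mTOR region within 1 kb and 17 within 5 kb. Over all 21764 ERRα regions of the genome the shares were 5.80% and 13.9%; the windows were chosen for holding many mTOR regions, so this difference is a description. Counted from the mTOR side, 12 of 67 regions (17.9%) had an ERRα region within 1 kb and 24 (35.8%) within 5 kb, where the shares over all 9069 mTOR regions were 13.3% and 29.1%. At the 18 ERRα regions not called in mTOR, the mTOR fold over IgG had a median of 1.31 and ran from 0.551 to 2.80.

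The strong regions of the windows were set beside other mTOR regions chosen by the same 20-fold limit. The sets are 42 regions in the windows, 21 in the chains on chromosome 13 and 252 elsewhere. Median mTOR levels were 36.6 (quartiles 22.1 and 52.1) in the windows, 30.9 (20.3 and 40.8) on chromosome 13 and 21.3 (14.3 and 32.2) elsewhere. Median ERRα levels in the same bins were 0.801, 0.694 and 0.703, and median IgG levels 0.602, 0.646 and 0.447. Widths at 50% of the summit were alike, with medians of 335, 339 and 324 bp. These are descriptions without a test, since mTOR over IgG chose every region in them.

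Regions with 2 or more summits made up 8 of 42 (19%) in the windows, 5 of 21 (23.8%) on chromosome 13 and 24 of 252 (9.52%) elsewhere. An ERRα region was touched by 5 of 42 (11.9%), 0 of 21, which allows a share of up to 14.3%, and 23 of 252 (9.13%). Within 5 kb an ERRα region lay beside 20 of 42 (47.6%), 3 of 21 (14.3%) and 88 of 252 (34.9%). Regions of 1 window or 1 chain share their neighbourhood, so these shares do not rest on 42 or 21 independent places. The limit of 14.3% is 3 divided by 21. It takes the 21 regions as independent, though they lie in 3 chains, and so may be too low. A wider set of 302 isolated regions, at 10-fold or more and over 50 kb from the next mTOR region, had a median level of 10.1 and a median width of 326 bp, but its limit of fold was lower.

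**Figure D5:**
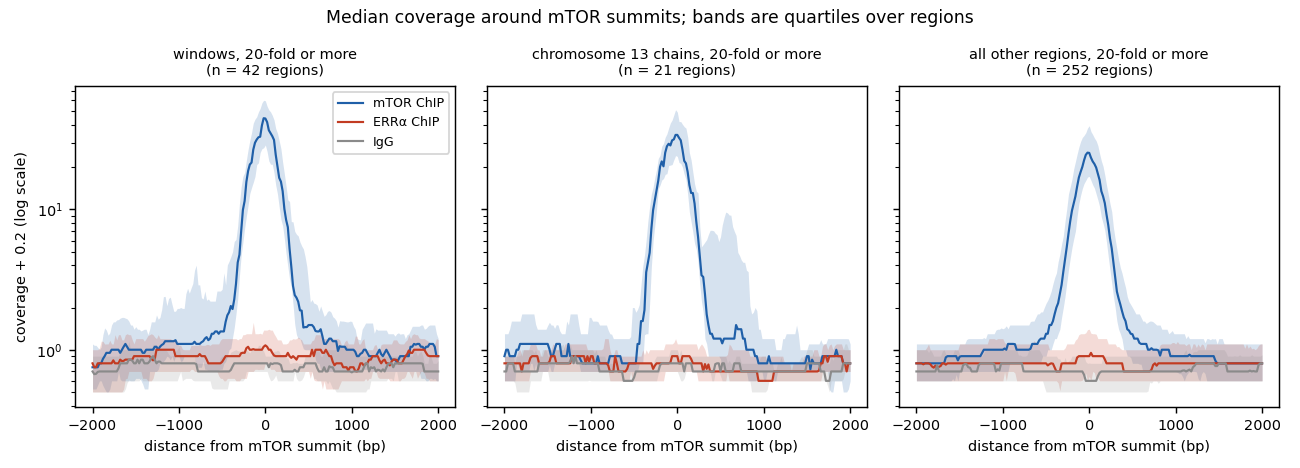
Median coverage plus 0.2, on a log axis, against the distance from the mTOR summit in bp, for mTOR regions at 20-fold or more in the windows, in the chromosome 13 chains and elsewhere; bands are quartiles over regions. At the summit the medians without the added 0.2 are 44.3, 33.8 and 25.1 for mTOR and 0.875, 0.700 and 0.700 for ERRα.

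Around the 42 strong summits of the windows, median mTOR coverage fell from 44.3 to 1.15 at 500 bp before and 1.30 at 500 bp after the summit, and to 0.900 and 0.80 at 1000 bp. ERRα was 0.875 at the summit and 0.620 and 0.700 at 500 bp on either side, and IgG was 0.600, 0.50 and 0.600. The mTOR peaks were thus local, with most of the excess within 500 bp of the summit.

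Gene order was available for another build only. In the RefSeq table of assembly GRCm38.p6, transfer RNA genes that directly neighbour another transfer RNA gene number 96 on chromosome 13, 48 on chromosome 6, 39 on chromosome 11 and 28 on chromosome 1. Each of the other chromosomes with a window also has some, with 8 on chromosome 19, 7 each on chromosomes 5, 14 and 17 and 4 on chromosome 8. Another 6 chromosomes have such genes and hold neither a window nor a chain, with 23 on chromosome 3, 11 on X, 5 on chromosome 2, 3 on chromosome 9 and 2 each on chromosomes 7 and 10. These are counts per chromosome, and whether any such gene lies in a window was not tested.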

How the data were processed

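Each deposited track is a signal of tag coverage that the authors brought to a total of 10000000 tags, per the file headers. BWA 0.5.9, MACS 1.4.1 and build mm9 are named, with no role, per the submitters' processing notes. No source used here states the tag extension or the treatment of duplicates. Per the labels' protocols, reads were single and 50 bp long. From the values, coverage sums to 149.3 to 149.9 bp per tag.

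Coverage was averaged over 200-bp bins, with uncovered positions as 0. The pseudocount (0.2) was the 5th and the minimum level (2.01, about 16.7 mTOR tags) the 99.9th percentile of IgG bins above 0. Overlap meant 1 bp or more. The caller was tested on simulated regions planted in bins with a middle IgG level, which does not cover bins with almost no IgG. Members, gene table and limits were chosen with earlier results of these data known. Regions were named by rule: per window the highest level, the lowest fold, the first, the last, those shared and the highest ERRα region, and overall the 10 highest mTOR and 5 highest ERRα levels. The rule on summits, set after seeing the data, and widths used coverage per base. Planned motif searches needed an mm9 genome and were not made. Python 3.11.15, NumPy 2.4.6, pandas 2.3.3, SciPy 1.17.1 and Matplotlib 3.10.9 were used.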

Additional observations from a re-analysis of the deposited data

How the results depend on the processing

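No paired analysis was possible because each group has 1 library, and for the same reason no replicate could be left out. Of 49 recomputed values, 45 stayed within 1.5 times of the reported one and 4 did not. The windows were chosen for regions at 20-fold or more, and 62 of the 67 mTOR regions reached 5-fold. The mTOR values thus had little room to move, and the 4 that moved were counts of ERRα or shared regions. ERRα regions in the windows numbered 15 at a minimum of 5-fold and 38 when the genome-wide mean replaced IgG, instead of 24. mTOR regions that touched an ERRα region numbered 12 with the genome-wide mean and 11 with 100-bp bins, instead of 6; the cause was not tested. mTOR regions ranged from 65 to 80 over the alternatives that kept all 10 windows, around 67. Leaving out the first chromosome 6 window, chosen after seeing the data, gave 60 mTOR regions, a median width of 346 bp and a median spacing of 3820 bp. Depth limits the low values most: an IgG level of 0.10 in a bin converts to about 1 tag. The tracks also hold 0.10 unchanged over runs of neighbouring bins, longer than the 150 bp of a tag. These low values, and intervals built on them, thus do not rest on counted tags.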
